A study of Mus musculus with 60 samples.

Results

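The regions described here are the broad H3K27me3 domains of hippocampal neurons, long stretches of chromatin that the peak caller reported as single peaks of 20 kb or more. They were chosen by peak width alone: every peak of at least 20000 bp in any of 6 H3K27me3 peak lists was taken, and intervals that shared at least 1 bp were merged over the lists. This gave 3031 peaks out of 100414 (3.02%), which merged into 874 domains. All peaks of any width merged into 27261 regions, of which 852 held a broad peak and 26409 were narrower throughout. The domains covered 35.05 Mb, or 1.32% of the known bases of the mouse genome (GRCm38) and 20.7% of the bases of all H3K27me3 regions.

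The lists came from CUT&RUN-seq, in which an antibody directs a nuclease to cut out the chromatin it binds, for H3K27me3, H4K8ac and IgG in 60 samples. All mice were male Emx1-NuTRAP animals, in which the Emx1-Cre driver labels nuclei mostly of excitatory neurons and also of their progenitors. Exercised mice had running wheels from postnatal day 21 to 41 and sedentary mice of the same ages had none. Each condition was studied in 3 arms: simultaneous INTACT and TRAP on both hippocampi (SIT, 4 samples per mark and condition), and separate isolation from the left or the right hippocampus (3 samples each). Each arm and condition had 1 list per mark, so there were 6 H3K27me3 and 6 H4K8ac lists. A list stands for its group as a whole, and holds positions without counts. Its values therefore have no SD, its depth cannot be read from the files, and a difference between 2 lists has no replicate check.

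H3K27me3 is the trimethylated form of lysine 27 on histone H3. It is laid down by the Polycomb complex PRC2, bound by PRC1, and found over the CpG-rich promoters of developmental genes that a cell keeps silent. Most such sites are short, but over clusters of homeobox genes the mark can spread across the whole locus. H4K8ac, acetylation of lysine 8 on histone H4, is by contrast a mark of active and accessible chromatin.

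Sequences from wide domains are shown first because they illustrate promoters with many and with few CpG, and long stretches without any annotated protein-coding start site. The first 4 are promoters from wide domains in which 1 protein-coding gene starts, picked as examples and not by rank in width, from 250 bases before to 50 bases after the RefSeq start (GRCm38.p6), written 5′ to 3′ on the strand of the gene. They lie at chr2:135659297-135659596 (plus strand), chr7:137314396-137314695 (minus), chr10:120476420-120476719 (minus) and chr12:56536859-56537158 (minus). The capitals mark each CpG, the letters CG, which read the same on both strands. Plcb4 encodes a phospholipase C of neurons, Ebf3 a helix-loop-helix transcription factor of neuronal differentiation, Hmga2 a chromatin protein of embryonic cells, and Nkx2-1 the homeobox factor of the ventral forebrain, lung and thyroid.
Plcb4 promoter: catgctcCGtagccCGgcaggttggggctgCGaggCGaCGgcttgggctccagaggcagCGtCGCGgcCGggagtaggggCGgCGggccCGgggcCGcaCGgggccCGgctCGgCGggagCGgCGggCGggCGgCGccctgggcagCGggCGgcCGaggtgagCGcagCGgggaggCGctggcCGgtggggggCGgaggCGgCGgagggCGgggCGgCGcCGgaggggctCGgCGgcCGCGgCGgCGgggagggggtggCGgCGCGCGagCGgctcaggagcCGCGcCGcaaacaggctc
Ebf3 promoter: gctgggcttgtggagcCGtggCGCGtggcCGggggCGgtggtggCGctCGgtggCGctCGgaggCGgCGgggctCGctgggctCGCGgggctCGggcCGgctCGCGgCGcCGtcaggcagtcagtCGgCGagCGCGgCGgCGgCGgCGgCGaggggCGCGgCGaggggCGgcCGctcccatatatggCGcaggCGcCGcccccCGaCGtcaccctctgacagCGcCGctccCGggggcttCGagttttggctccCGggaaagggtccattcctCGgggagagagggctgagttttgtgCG
Hmga2 promoter: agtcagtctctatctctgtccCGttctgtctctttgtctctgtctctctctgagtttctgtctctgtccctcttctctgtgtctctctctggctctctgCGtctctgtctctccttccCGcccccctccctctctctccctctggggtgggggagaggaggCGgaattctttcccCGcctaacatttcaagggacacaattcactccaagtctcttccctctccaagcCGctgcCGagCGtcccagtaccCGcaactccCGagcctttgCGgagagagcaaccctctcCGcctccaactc
Nkx2-1 promoter: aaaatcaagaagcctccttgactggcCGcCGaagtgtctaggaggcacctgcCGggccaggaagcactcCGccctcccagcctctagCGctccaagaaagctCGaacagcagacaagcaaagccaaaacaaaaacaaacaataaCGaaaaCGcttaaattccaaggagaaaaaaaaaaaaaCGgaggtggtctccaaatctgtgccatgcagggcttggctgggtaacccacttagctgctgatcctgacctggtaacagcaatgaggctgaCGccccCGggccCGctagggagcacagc

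The next 3 are the 300 bases with the most CpG in the widest domains without a protein-coding start site, on the plus strand. They lie at chr17:67126366-67126665 inside the body of Ptprm, which encodes a receptor tyrosine phosphatase, at chr7:115315031-115315330 between genes, and at chr11:44741033-44741332 inside the body of Ebf1, a relative of Ebf3.
Ptprm body: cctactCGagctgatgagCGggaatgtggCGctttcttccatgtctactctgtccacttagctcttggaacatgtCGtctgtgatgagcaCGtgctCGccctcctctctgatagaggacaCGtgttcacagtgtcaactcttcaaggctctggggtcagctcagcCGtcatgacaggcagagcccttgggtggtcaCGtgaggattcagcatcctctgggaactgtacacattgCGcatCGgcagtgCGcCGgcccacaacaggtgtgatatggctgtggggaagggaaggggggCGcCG
chr7 intergenic: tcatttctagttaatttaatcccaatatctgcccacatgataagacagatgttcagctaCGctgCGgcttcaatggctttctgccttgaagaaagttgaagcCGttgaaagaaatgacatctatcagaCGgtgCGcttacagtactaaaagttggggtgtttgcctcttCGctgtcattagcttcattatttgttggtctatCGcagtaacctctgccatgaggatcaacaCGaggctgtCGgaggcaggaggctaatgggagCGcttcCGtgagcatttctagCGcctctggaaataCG
Ebf1 body: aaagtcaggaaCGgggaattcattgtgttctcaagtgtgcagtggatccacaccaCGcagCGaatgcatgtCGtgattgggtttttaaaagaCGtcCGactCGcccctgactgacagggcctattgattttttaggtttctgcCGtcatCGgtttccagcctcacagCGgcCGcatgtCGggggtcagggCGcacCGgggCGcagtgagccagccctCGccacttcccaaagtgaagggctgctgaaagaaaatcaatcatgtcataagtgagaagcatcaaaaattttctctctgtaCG

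The Plcb4 and Ebf3 promoters held 50 and 46 CpG. Of the 32851 promoters in the RefSeq table, 0.855% held at least 50 and 1.65% at least 46, against a median of 7. The Hmga2 and Nkx2-1 promoters held 12 each, a number that 39.6% of promoters reached, although the densest 300 bases elsewhere in each of these domains held 44. The best windows of the 3 domains without a start site held 15, 13 and 17 CpG, which 34.6%, 37.9% and 31.4% of promoters reached. Each of these windows is the densest of its whole domain, and many promoters are as dense.

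The number of broad peaks differed several-fold between lists. The exercised SIT list held 827 (of 25693 peaks), the sedentary SIT list 530 (of 10279), the exercised left list 502 (of 18262), the sedentary left list 361 (of 14491), the exercised right list 135 (of 9899) and the sedentary right list 676 (of 21790). Their share of the list was lowest in the exercised right list (1.36%, 95% Wilson interval 1.15 to 1.61, covering counting error only) and highest in the sedentary SIT list (5.16%, 4.74 to 5.60). Broad peaks held between 9.74% (exercised right) and 25.6% (sedentary SIT) of all bases in their list. The widest peak measured 76888 bp in the exercised right list and between 183681 and 233495 bp in the other lists. The exercised right list thus stood apart from the other 5 in number and width, and its values are set apart below.

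Merged domains were 20024 to 233495 bp wide, with a median of 30652.5 bp and quartiles of 24184.25 and 45219.5 bp. Most were near the threshold: 698 were under 50 kb, 135 lay between 50 and 100 kb, and 41 were wider. The threshold fell within a continuous range of widths. The 3 narrowest peaks taken measured 20018 bp (assigned to Dlx4), 20024 bp (Anxa2) and 20028 bp (Snx8), and the 3 widest peaks left out measured 19997 bp (Erbb4), 19996 bp (Ntn1) and 19991 bp (Gm11217).

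Width and presence gave different pictures of sharing. As a peak of 20 kb or more, 262 domains were held in 1 list, 118 in 2, 106 in 3, 112 in 4, 168 in 5 and 108 in all 6. Without the exercised right list, 268 domains were held in all of the other 5. As marked chromatin at any width, 854 of the 874 domains had an H3K27me3 peak in all 6 lists, 19 in 5 and 1 in 4. A stricter criterion, at least 50% of the domain covered, was met in all 6 lists by 510 domains. The domains held in 1 list alone came mostly from the exercised SIT list (184) and the sedentary right list (50). Elsewhere these same domains were present in pieces, with a median of 71.2% of the length covered in the lists that held no broad peak there.

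**Figure D1:**
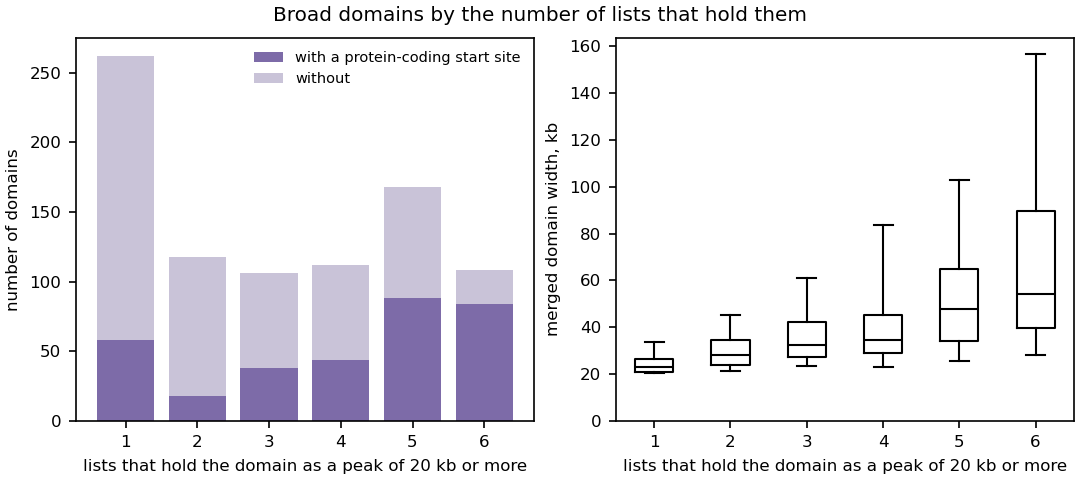
Left, number of domains (y axis) by how many of the 6 H3K27me3 lists held them as a peak of at least 20 kb (x axis), split by whether a protein-coding gene starts inside. Right, merged width in kb for the same classes (line, median; box, quartiles; whiskers, 5th to 95th percentile). Domains in all 6 lists had a median width of 54021.5 bp and 84 of 108 held a start site, against 22867.5 bp and 58 of 262 for domains in 1 list. The classes were not compared at equal width.

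The width of a domain moved with the number of lists that held it, in part by construction, since merging over more lists can only widen it. The median was 22867.5 bp for domains in 1 list and 54021.5 bp for those in 6. The share with a protein-coding start site was 22.1% for 1 list, 15.3% for 2, 35.8% for 3, 39.3% for 4, 52.4% for 5 and 77.8% for 6. A CpG-island-like window (500 bases with at least 55% G+C and an observed over expected CpG of at least 0.65) was found in 22.5% of domains in 1 list and 80.6% of those in 6. A wider interval has more room for a start site or such a window. Neither share was compared at equal width.

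The widest domain lay on chromosome 2 (chr2:135601520-135835014, 233495 bp) around the start and first part of Plcb4. The exercised SIT list held it as a single peak of 233495 bp, while the widest peaks of the other lists measured 126860 bp (sedentary SIT), 101667 bp (exercised left), 95683 bp (sedentary left), 65535 bp (exercised right) and 101955 bp (sedentary right). Those lists split it into 10 to 22 peaks. Its covered share was nonetheless 88.6 to 100% in 5 lists and 67.8% in the exercised right list. The GENCODE start of Plcb4, a little upstream of the RefSeq start behind the promoter printed above, was under a peak in 2 of the 6 lists. The domain on chromosome 3 (chr3:145661755-145865456, 203702 bp) held the start of Ddah1, an enzyme that clears inhibitors of nitric oxide synthase. It was covered to 90.8 to 99.7% in 5 lists and to 69.4% in the exercised right list.

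The 4 Hox clusters, whose homeobox genes set position along the body axis, were covered almost throughout in most lists. The HoxC domain (chr15:102896456-103091206, 194751 bp) was nearly 1 unbroken peak in 5 lists, with widest peaks of 193011, 193722, 193793, 183681 and 193654 bp, and was split into 13 peaks in the exercised right list, where 84.9% was covered. The HoxA domain (chr6:52139092-52303050, 163959 bp) was covered to 95.6% or more in every list, the exercised right list included. The HoxB domain (chr11:96225588-96387303, 161716 bp) was covered to 93.7 to 99.7% in 5 lists and 80.4% in the exercised right list. A gap of under 1 kb separated it from a second domain of 106057 bp that held Hoxb13 and Ttll6. The HoxD domain (chr2:74637138-74776245, 139108 bp) also held Evx2 and was covered to 95.1 to 99.5% in 5 lists and 87.4% in the exercised right list. Ebf3 (chr7:137180312-137337153, 156842 bp) was much like a Hox cluster, with widest peaks of 153742 to 156118 bp in 5 lists and 91.4% cover in the exercised right list.

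**Figure D2:**
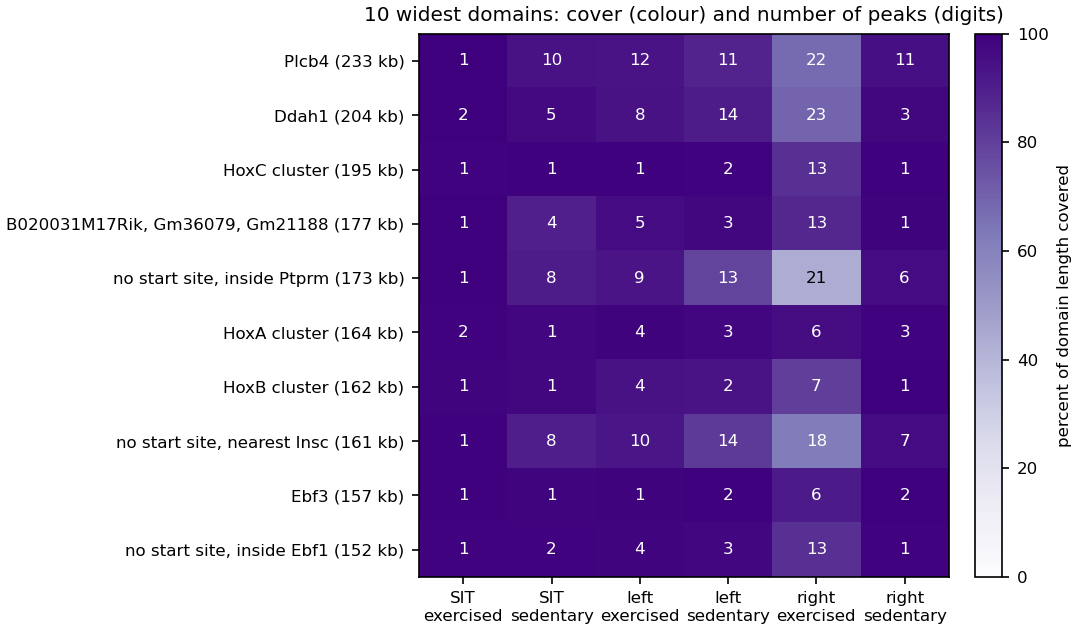
The 10 widest domains (rows, with merged width) in each H3K27me3 list (columns). Colour gives the percent of the domain under a peak and the digit the number of peaks. The HoxC cluster and Ebf3 were near-continuous in 5 lists, and HoxA and HoxB had 1 to 4 peaks in those lists. The exercised right list split each of the 10 domains into 6 to 23 peaks.

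Of the 10 widest domains, 3 held no protein-coding start site. The domain on chromosome 17 (chr17:67045957-67219360, 173404 bp) lay inside Ptprm, 135097 bp from its start, and was 1 peak in the exercised SIT list, 6 to 13 peaks in 4 others and 21 peaks in the exercised right list, with 43.4% covered there. That on chromosome 7 (chr7:115167083-115328200, 161118 bp) lay 423389 bp from the nearest protein-coding start, of Insc, and was covered to 62.3 to 99.5%. That on chromosome 11 (chr11:44705102-44857231, 152130 bp) lay in the body of Ebf1 and was covered to 84.7 to 98.9%. The next widest of this kind were inside Cux1 (chr5:136388364-136530361, 141998 bp), which encodes a homeobox factor, and near Maf (chr8:115387714-115521189, 133476 bp), which encodes a bZIP factor. One domain of the 10 widest, chr13:119934544-120111711 (177168 bp), held B020031M17Rik, Gm36079 and Gm21188, genes with provisional names. Such genes often have near-identical copies, and how reads that fit several places were assigned is not given in the sources used here, so its extent is uncertain.

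Cover of the whole set followed the number of peaks in a list, except that the sedentary SIT list covered more than the longer sedentary left list. Of all domain bases, 97.7% were under a peak of the exercised SIT list, 84.4% of the sedentary SIT list, 86.5% of the exercised left list, 79.4% of the sedentary left list, 56.4% of the exercised right list and 93.7% of the sedentary right list. The number of peaks within a domain ran the opposite way. The median was 1 in the exercised SIT list, 2 in the sedentary SIT, exercised left and sedentary right lists, and 3 in the sedentary left and exercised right lists. In the exercised right list 204 domains were split into 5 or more peaks, and in the exercised SIT list 6 were. In the 108 domains held as broad in every list, the median of the widest peak still ranged from 26490.5 bp (exercised right) to 48851.0 bp (exercised SIT), and the median cover from 81.0 to 98.6%.

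**Figure D3:**
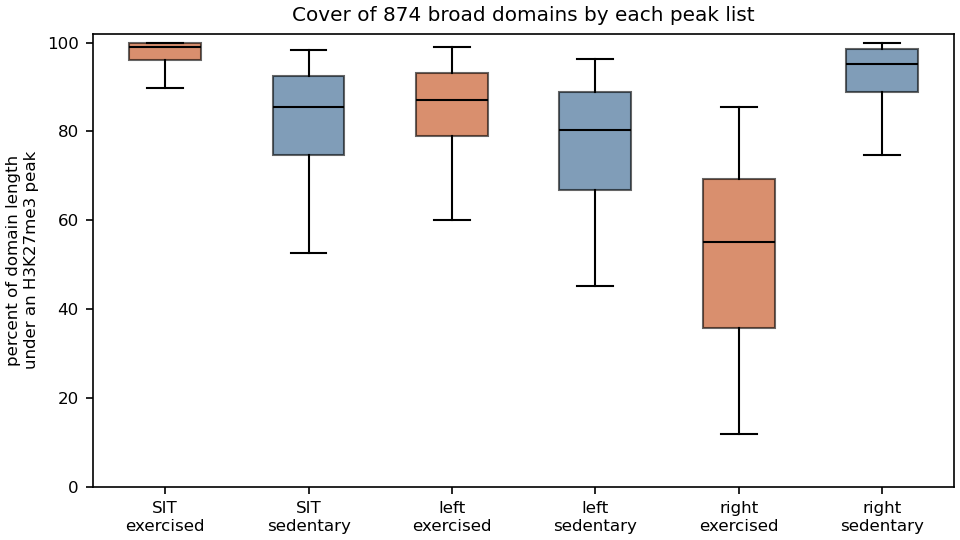
Percent of the length of each domain under an H3K27me3 peak (y axis) in each of the 6 lists (x axis; line, median; box, quartiles; whiskers, 5th to 95th percentile over the 874 domains; orange exercised, blue sedentary). The median was 99.0% in the exercised SIT list and 55.1% in the exercised right list, with the other lists between 80.3 and 95.3%.

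The design asks whether early-life exercise changed the domains. The exercised and sedentary lists of an arm were compared by covered share, as a description with no test because the same lists chose the domains. The difference was 13.3 percentage points in the SIT arm and 7.14 in the left arm, both higher in exercised mice, and -37.4 points in the right arm, where the sedentary list covered more. With domains chosen on the other 2 arms alone, the SIT difference was 7.56 points, and at a minimum width of 50 kb it was 7.89. The right arm difference rests on the exercised right list, and without that list the arm has no comparison. The arms thus differed in direction, and the difference in each followed that in list length: the exercised list held 2.50 times as many peaks as the sedentary list in the SIT arm, 1.26 times in the left arm and 0.454 times in the right arm. Depth, the number of libraries behind a list and the condition cannot be told apart here.

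Few domains were marked in 1 condition of an arm only. In the SIT arm 1 domain was marked in the exercised list only and 0 in the sedentary list only, where 65.2% and 0.796% of all merged H3K27me3 regions of the arm were. In the left arm both counts were 0, where 35.9% and 13.2% of the regions of the arm were marked in exercised or sedentary mice only. In the right arm 20 domains were marked in sedentary mice only and 0 in exercised mice only, where 67.5% and 2.4% of regions were. With at least 50% cover as the criterion, 39 domains were marked in exercised and 1 in sedentary mice only in the SIT arm (against 70% and 1.5% of all regions), 50 and 9 in the left arm (against 40.4% and 15.4%), and 0 and 357 in the right arm (against 2.57% and 79.2%). A wide region offers more bases on which a peak can fall, so these counts are not independent of the choice by width. The ratio of covered bases, exercised over sedentary, was 1.16 inside and 2.37 outside the domains in the SIT arm, 1.09 and 1.35 in the left arm, and 0.602 and 0.263 in the right arm. The ratio inside is held toward 1 where cover is near its ceiling, since the domains were chosen from the same lists, so nothing is read from its being nearer to 1.

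The exercised list covered more of a domain in 786 of 874 domains in the SIT arm (against 91.9% of all regions of the arm) and less in 88 (against 8.11%). In the left arm it covered more in 652 (against 66.3%) and less in 222 (against 33.6%). In the right arm it covered more in 2 (against 4.88%) and less in 872 (against 95.1%). The direction of most domains in each arm was thus that of most regions. Only 2 domains were covered more in exercised mice in all 3 arms, against 0.869% of all merged regions, and 23 were covered more in sedentary mice in all 3 arms, against 1.7%.

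Neither of the 2 domains covered more in exercised mice differed by more than 12.5 points in any arm. The first, chr8:121067422-121095245 (27824 bp), held Foxf1, a forkhead factor of lung and gut mesenchyme, and was a single peak in each list. Its cover was 95.3% in the exercised and 90.5% in the sedentary list of the SIT arm, 99.6% and 92.1% in the left arm, and 92.2% and 91.7% in the right arm. The second, chr1:176363303-176383582 (20280 bp), held no protein-coding start and differed by 12.5, 12.3 and 2.07 points. Of the 23 in the opposite direction, the 5 with the largest mean shift had their largest difference in the right arm, and so rest mostly on the exercised right list. At Slc2a4, which encodes the insulin-regulated glucose transporter, and Cldn7, a tight-junction gene (chr11:69947393-69968750), the differences were -0.712, -7.90 and -69.5 points. At Ncmap, a myelin-associated gene (chr4:135384435-135405994), they were -2.41, -23.1 and -51.7 points. The other 3 domains, chr19:44639619-44674693, chr3:115484537-115507561 and chr14:48788007-48822276, held no protein-coding start and had mean differences of -32.2, -30.3 and -27.8 points.

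The domains held the start sites of 435 protein-coding genes, 1.99% of the 21911 in GENCODE M21. These fell in 330 domains, 282 with 1 start and 48 with more, up to 13 in the HoxA domain. Start sites were denser in the domains (12.4 per Mb) than over the known genome (8.28 per Mb) and less dense than in the narrower H3K27me3 regions (16.9 per Mb). Where a domain held a single start, it reached a median of 18681 bp downstream and 14364 bp upstream of it, and further downstream in 188 of 282 domains. The starts of 310 of the 435 genes were under a peak in all 6 lists. The number under a peak was 429 in the exercised SIT list and between 396 and 420 in the others, except for 325 in the exercised right list. The deposited lists assign 1 gene to each peak. By that assignment 115 of the 435 genes were attached to no broad peak, among them Hoxa13. A peak that spans several genes is credited to 1 of them.

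**Figure D4:**
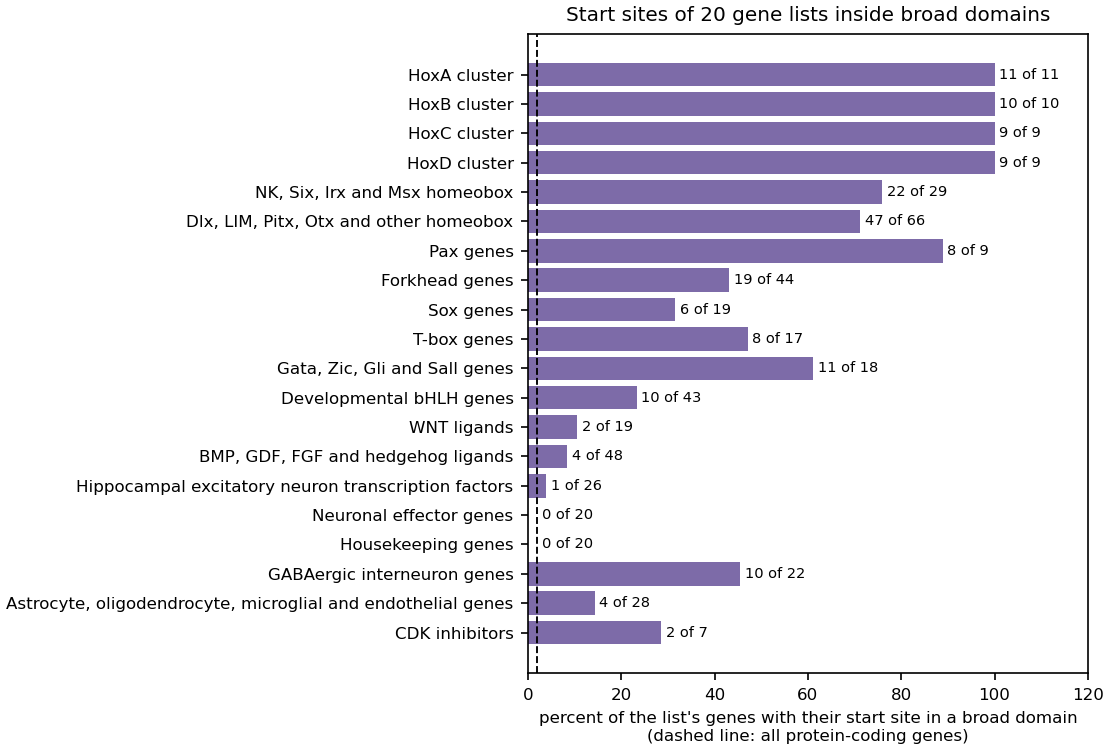
Percent of the protein-coding genes of 20 lists whose start site lies in a broad domain (bars, with counts), and the share of all protein-coding genes (dashed line, 1.99%). The 4 Hox lists were complete, other homeobox and Pax lists lay above 70%, and the neuronal effector and housekeeping lists held none.

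Of the 435 genes, 170 (39.1%) belonged to 12 lists of developmental transcription factors, which together hold 284 genes, or 1.30% of all protein-coding genes. The counts that follow stand against the 1.99% of all protein-coding genes that started in domains. All 39 Hox genes started in a domain (11 HoxA, 10 HoxB, 9 HoxC and 9 HoxD), as did 8 of 9 Pax genes, Pax4 being outside. Of 29 genes of the NK, sine oculis, Irx and Msx families 22 did, with Nkx2-1 (122166 bp, 6 lists), Six6 (78178 bp, 5 lists) and Nkx2-3 (63763 bp, 6 lists) in the widest. The genes of these families pattern the eye, heart, gut and ventral brain. Of 66 other homeobox genes, among them Dlx, LIM, Pitx and Otx genes, 47 did, with Barhl2 (109469 bp), En2 (104677 bp) and Dbx1 (94024 bp) in wide domains. The count was 11 of 18 Gata, Zic, Gli and Sall zinc finger genes, 8 of 17 T-box genes, 19 of 44 forkhead genes, 10 of 43 developmental bHLH genes and 6 of 19 Sox genes.

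Members of a family differed. Tbx5, a factor of heart and forelimb, lay in a domain of 102747 bp, Tbx3 in 84155 bp and Eomes in 83110 bp, while Tbr1, a factor of cortical glutamatergic neurons, was in no H3K27me3 peak and had H4K8ac over its start in all 6 lists. Among forkhead genes Foxb1 lay in 106191 bp and Foxd2 and Foxe3 in 57694 bp. Emx1 and Emx2, the first of which drives the Cre of these mice, had neither mark over their starts. Pax3 (chr1:78102438-78225318, 122881 bp), a neural crest factor, was covered to 92.5 to 99.5% in 5 lists and 84.6% in the exercised right list.

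Of the genes of secreted signals, 2 of 19 WNT genes (10.5%, Wnt8b and Wnt6) and 4 of 48 BMP, GDF, FGF and hedgehog genes (8.33%, Bmp4, Gdf6, Ihh and Shh) started in domains, against 1.99% of all protein-coding genes. At any width, 13 WNT genes and 25 of the other group had an H3K27me3 peak over the start in at least 1 list, as did 12.2% of all protein-coding genes. Of 7 CDK inhibitor genes, which halt the cell cycle, Cdkn2a and Cdkn2b shared a domain of 66283 bp held in all 6 lists, and Cdkn1a, Cdkn1b, Cdkn1c, Cdkn2c and Cdkn2d were outside. Counting only start sites inside a broad peak in all 6 lists, 87 protein-coding genes (0.397%) remained, with 9 HoxA, 8 HoxB, 3 HoxC and 3 HoxD genes.

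The neuron label was checked against marker genes. None of 20 neuronal effector genes, which encode synaptic and channel proteins such as Camk2a, Grin1, Snap25 and Slc17a7, had an H3K27me3 peak of any width over the start in any list, and the same held for 20 housekeeping genes, against 12.2% of all protein-coding genes. H4K8ac peaks lay over the starts of 2 to 6 of the 20 effector genes, depending on the list, with Snap25 in 4 lists and Camk2a, Grin1 and Slc17a7 in none. Over all protein-coding genes the share under H4K8ac was 4.74 to 18.5%. By list, H4K8ac also lay over the starts of 5 to 7 of 26 transcription factor genes of hippocampal excitatory neurons. The counts were 0 to 3 of 22 genes of GABAergic interneurons and 0 to 2 of 28 glial and endothelial genes. Of the 22 interneuron genes 10 started in broad domains (45.5%, against 1.99% of all protein-coding genes), namely Nkx2-1, Lhx6, Dlx1, Dlx2, Dlx5, Dlx6, Reln and Erbb4 and the defining genes Gad2 (23375 bp, 3 lists) and Slc32a1 (28780 bp, 4 lists), which make and load GABA. The first 6 of these are homeobox genes already counted above. Gad1, Sst, Pvalb and Vip were outside broad domains, although an H3K27me3 peak lay over the start of Sst in 6 lists, Vip in 3 and Pvalb in 1. Of 28 astrocyte, oligodendrocyte, microglial and endothelial genes 4 were in domains (14.3%): Olig2, Olig1, Pdgfra and Flt1. Gfap, Aqp4 and Mbp had no H3K27me3 over their starts, while Cx3cr1 had a narrower peak in 4 lists and Cldn5 in 6. At any width, an H3K27me3 peak in at least 1 list lay over the starts of 17 of the 22 interneuron genes. The counts were 11 of the 28 glial and endothelial genes and 2 of the 26 excitatory transcription factor genes. Among all protein-coding genes the share was 12.2%.

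Of 26 transcription factor genes of hippocampal excitatory neurons 1, Prox1, the factor of dentate granule cells, was in a domain (chr1:190129742-190183325, 53584 bp), a share of 3.85% against 1.99% of all protein-coding genes. It was held as a broad peak in 3 lists. Its cover was 98.9% in the exercised SIT, 97.8% in the sedentary SIT, 69.1% in the exercised left, 62.8% in the sedentary left, 4.23% in the exercised right and 95.8% in the sedentary right list. It was among the 5 domains with the most H4K8ac, which covered 980 bp in the exercised SIT, 2071 bp in the sedentary left and 1668 bp in the sedentary right list and 0 bp in the other 3. The start of Prox1 was under H3K27me3 in 4 lists and under H4K8ac in none. The samples mix CA1, CA3 and dentate gyrus nuclei, so both marks at a locus need not be on the same nuclei.

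The other 544 domains (62.2%) held no protein-coding start site. Among narrower H3K27me3 regions, with a median width of 3455 bp, only 8.065% held one, so the lack of a start is not particular to the domains. Of the 544 domains, 170 lay wholly within the body of 1 protein-coding gene, 42 partly within gene bodies and 332 outside them. Their median distance to the nearest protein-coding start was 107761 bp, and 283 lay more than 100 kb away. Counting all annotated genes, 489 domains held a start and 385 held none. Domains with and without a protein-coding start were of similar width, with medians of 33161.5 and 29345.5 bp. Over all domains 39.7% of bases lay in protein-coding gene bodies, as did 39.3% of the known genome.

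Many domains were neighbours. With domains up to 100 kb apart counted as a run, 504 of 874 (57.7%) lay in 170 runs of 2 or more, and 18 runs held 5 or more. No share for other regions stands beside this one. Some neighbours were parted by short gaps only, since merging intervals up to 5 kb apart left 791 domains. The longest run, chr8:114488092-115735368, strung 14 domains over 1247277 bp, with 75.5% of the span inside domains and Maf as the only protein-coding start. It overlapped the body of Wwox, which encodes an oxidoreductase. The run at chr7:114866194-115760101 had 13 domains, no protein-coding start and part of the body of Sox6. Runs of 8 domains each lay over the body of Rbms3 on chromosome 9, over Reln on chromosome 5 and between genes on chromosome 13. The Sox6 start lay in a separate domain of 51147 bp held in all 6 lists.

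Chromosomes differed in their number of domains. Chromosome 2 held 86 domains (48.2 per 100 Mb of known bases), chromosome 8 held 81 (64.5 per 100 Mb) and chromosome 11 held 72 (60.6 per 100 Mb). Chromosome 15 held 8 (7.95 per 100 Mb), of which the HoxC cluster was the widest, although its density of H3K27me3 regions of any width (878 per 100 Mb) was close to that of chromosome 1 (874 per 100 Mb), which held 42 domains. The X chromosome, present once in male cells, held 1 domain and 159 regions of any width (97.2 per 100 Mb). The part of copy number in this count was not tested. The Y chromosome held 7 regions and 0 domains.

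The domains were richer in G+C and CpG than the genome, and so, to a lesser degree, were narrower H3K27me3 regions. G+C content was 44.8% in the domains, 44.1% in narrower regions and 41.7% in the genome. CpG occurred 12.7 times per kb in the domains, 10.5 in narrower regions and 8.26 in the genome. Domains with a protein-coding start had 16.0 CpG per kb and those without 10.2. A CpG-island-like window was present in 291 of 330 domains with a start (88.2%) and 69 of 544 without (12.7%), against 18.7% of 86074 genome tiles of 30652 bases, the median domain width. The median of the most CpG in 300 bases was 39 for domains with a start and 13 for those without, so the windows printed above from Ptprm, Ebf1 and chromosome 7 are near the median of their class. Repeat-masked bases made up 22.4% of the domains and 36.4% of the genome.

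H4K8ac, which took no part in the choice of the domains, was scarce in them. The share of domain bases under an H4K8ac peak, with the share outside the domains, was 0.0804% and 3.07% in the exercised SIT list, 0.0444% and 1.78% in the sedentary SIT list and 0.000936% and 0.987% in the exercised left list. It was 0.0476% and 2.52% in the sedentary left list, 0.0154% and 0.938% in the exercised right list and 0.0609% and 2.15% in the sedentary right list. The values inside and outside did not overlap. The mean difference was -1.86 percentage points, with inside lower in 6 of 6 lists (exact permutation test by sign flips, two-sided, p = 0.0312, the smallest p that 6 lists allow). Narrower H3K27me3 regions had shares of 0.0507 to 0.301%, and domains were lower than these in 6 of 6 lists as well (mean difference -0.124 points, exact permutation test, p = 0.0312). These 2 sets were separated by width itself and also differ in their density of start sites. The part of either in this smaller difference was not tested.

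At start sites the contrast was complete. None of the 435 protein-coding starts in domains was under an H4K8ac peak of any list, where 1039 to 4051 of the 21476 starts outside were (4.84 to 18.9%). The mean difference was -10.3 points (exact permutation test by sign flips, two-sided, p = 0.0312). These p-values treat each pooled list as 1 unit, and the nuclei of a sample were divided between both antibodies, so the lists of the 2 marks are not from separate mice.

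**Figure D5:**
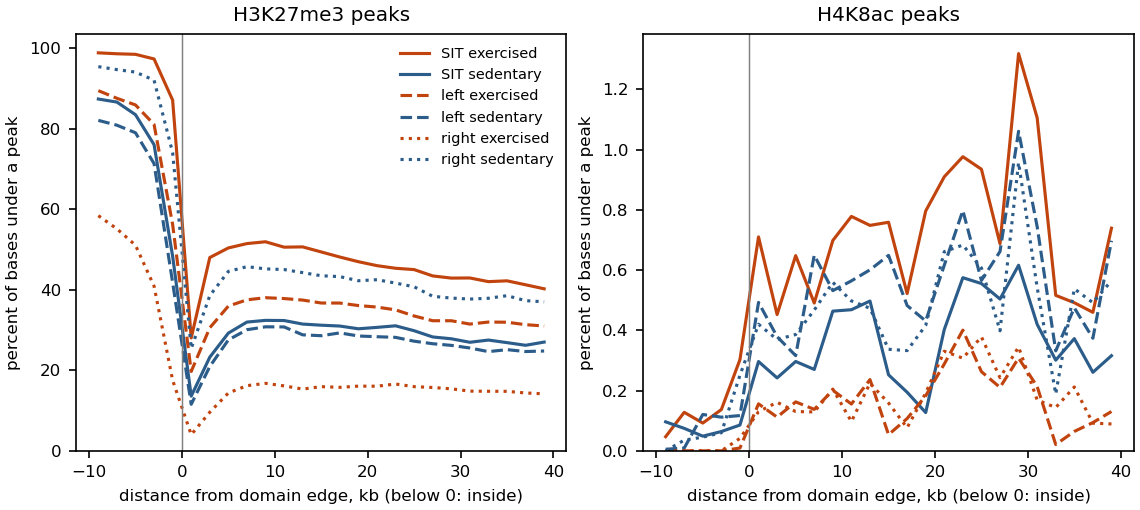
Percent of bases under an H3K27me3 (left) or H4K8ac peak (right) by distance from the domain edge in bins of 2 kb, inside (below 0) and outside, over both edges of all domains (orange exercised, blue sedentary; solid SIT, dashed left, dotted right). H3K27me3 in the exercised SIT list was 98.8% at 8 to 10 kb inside, 87.1% in the last 2 kb inside and 28.0% in the first 2 kb outside, and stood at 51.9% 8 to 10 kb outside; H4K8ac was at most 1.32% in every bin.

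The chromatin around the domains was itself rich in H3K27me3. In the exercised SIT list 51.9% of bases 8 to 10 kb outside an edge were under a peak, in part of neighbouring domains, and 40.2% at 38 to 40 kb. This list had the highest values. The other lists had 16.8 (exercised right) to 45.2% (sedentary right) at 8 to 10 kb, and 14.2 to 37.0% at 38 to 40 kb. The dip just outside the edge is in part fixed by the definition, since no broad peak can cross an edge. H4K8ac in the exercised SIT list was 0.0470% at 8 to 10 kb inside, 0.710% in the first 2 kb outside and at most 1.32% within 40 kb. All were below the 3.07% found outside domains as a whole in that list.

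H4K8ac peaks touched 42 domains (4.81%), 10 of them in more than 1 list. The 5 with the most H4K8ac were a domain partly in the body of Sprr2a2, an epidermal gene with close copies nearby (chr3:92234826-92261318), the domains of Col27a1, a cartilage collagen gene (chr4:63176949-63290127), and Prox1, one overlapping Nr2f2, an orphan receptor gene (chr7:70312968-70353246), and one without a protein-coding start (chr8:20526802-20549723). At Col27a1 H4K8ac covered 3468 bp in the exercised SIT, 918 bp in the sedentary left, 1152 bp in the exercised right and 3077 bp in the sedentary right list. A single domain, that of Mpzl2, had H4K8ac in all 6 lists, always at its very edge, and is named after its values were seen. Of the H4K8ac bases in domains, the H3K27me3 list of the same group covered 85.6% in the exercised SIT, 65.2% in the sedentary SIT, 0% in the exercised left (1 peak), 75.1% in the sedentary left, 17.6% in the exercised right and 73.0% in the sedentary right list. Each of these shares lay below the cover of all domain bases by the same H3K27me3 list, given above (56.4 to 97.7%), and no test was made because those lists chose the domains.

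The exercised minus sedentary difference in H4K8ac within domains did not have the same sign in the 3 arms. The difference in covered share was 0.0360 points in the SIT arm, -0.0467 in the left arm and -0.0455 in the right arm, with a mean of -0.0187 (exact permutation test by sign flips, two-sided, p = 0.5, with 0.25 the smallest p possible). The number of domains with an H4K8ac peak was 19 and 12 in the exercised and sedentary SIT lists, 1 and 12 in the left arm, and 5 and 15 in the right arm. Outside the domains the covered share differed in the same direction in each arm, as the shares above show, so the order of these counts is not particular to the domains. Some exercised H4K8ac libraries were left out by the authors, and the part of this in the counts was not tested.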

How the data were processed

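CUT&RUN-seq was done on hippocampal nuclei isolated from Emx1-NuTRAP mice. According to the labels and methods, alignment to mm10 was by Bowtie2 2.4.1, and the authors called peaks with SEACR (stringent setting) and annotated them with ChIPseeker 1.8.6. The deposited lists, 1 per group, hold peak positions, widths (bp) and an assigned gene. Without counts, the depth of a list cannot be read from the files. Some exercised H4K8ac samples were left out by the authors. How the remaining samples were merged is not given in the sources used here. For its SIT peaks the paper gives fewer mice per condition than the samples listed here. How many samples stand behind a SIT list, of either mark, is therefore uncertain. IgG samples were not analysed here.

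Domains were defined as stated above. Cover was the share of a domain's bases under a peak, and overlap meant at least 1 bp. Start sites came from GENCODE M21 (GRCm38). Of 10672 transcripts assigned to H3K27me3 peaks, 99.1% were found there with the same version. Sequence came from GRCm38.p6 and RefSeq. H4K8ac was compared with exact sign-flip permutation tests over lists or arms, at a threshold of 0.05. Measures of H3K27me3 were described without a test, because peak width in those lists chose the domains. Alternatives were widths of 10 and 50 kb, merging within 5 kb, 50% cover, lists left out in turn, domains chosen on other arms, other start site rules and unmasked bases. A distance of 50 kb for runs was added after seeing the data, as was the distance of 100 kb.

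Named domains were the 10 widest, the 5 widest in all 6 lists, in 1 list and without a protein-coding start, the 5 with the largest shift in each direction and the same sign in 3 arms, the 5 with the most H4K8ac, and the peaks next to the threshold. Named genes started in these or belonged to 20 gene lists. Other genes were named as host or nearest genes, from runs, or as sequence examples, and these and the Mpzl2 domain were chosen after their values were seen. The domains, lists and tests were chosen with earlier results of these data known. Interval functions and the sign-flip test were tested on simulated data. Python 3.11.15, numpy 2.4.6, pandas 2.3.3 and matplotlib 3.10.9 were used.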

Additional observations from a re-analysis of the deposited data

Results flagged for a closer look

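The difference between exercised and sedentary mice in the share of domain length under H3K27me3 went in opposite directions in different arms. It was 13.3 percentage points in the SIT arm and 7.14 in the left arm, both higher in exercised mice, and -37.4 in the right arm. Each arm rests on 1 list per condition, and the difference between arms was not tested. The exercised right list was also the shortest, with 9899 peaks of any width.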

How the results depend on the processing

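The number of domains followed the width chosen: 2811 at 10 kb and 157 at 50 kb, against 874 at 20 kb. It ranged from 723 to 875 with lists left out in turn. The number held as broad in all 6 lists, 108, was 422 at 10 kb and 9 at 50 kb, and ranged from 108 to 268 with a list left out, the highest without the exercised right list. The number covered in all 6 lists, 854, was 510 at 50% cover and ranged from 721 to 874 with a list left out. At 50% cover the domains marked in 1 condition only rose to 39 (exercised) and 1 (sedentary) in the SIT arm, 50 and 9 in the left arm, and 357 (sedentary) in the right arm, where 0 were exercised only. No value changed sign. The arm differences kept their direction under each of 4 alternatives, including domains chosen on the other 2 arms (7.56, 6.74 and -35.5 points). H4K8ac was lower inside in 6 of 6 lists under each of 3 alternatives, so p stayed at its smallest possible value of 0.0312 (exact sign-flip permutation test). That p does not reflect the size of the difference. The difference, -1.865 points in the main comparison, was -0.124 against narrower H3K27me3 regions, -1.871 at 50 kb and -10.33 at start sites. With runs defined at 50 kb, 405 domains lay in runs. No paired analysis was possible because a list covers a group as a whole and carries no replicate numbers. A peak list cannot separate absence of the mark from a signal under the caller's threshold.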

Other observations

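A pair of neighbouring domains on chromosome 8 covered the array of 5S ribosomal RNA genes, short non-coding genes transcribed by RNA polymerase III. They lay at chr8:123537770-123564317 (26548 bp, 15 rRNA genes) and chr8:123564941-123627278 (62338 bp, 35 rRNA genes) and held 50 of the 52 rRNA genes that start in domains. Cover of the larger was 99.5% in the exercised SIT, 92.0% in the sedentary SIT, 96.3% in the exercised left, 91.6% in the sedentary left, 84.2% in the exercised right and 97.0% in the sedentary right list. The larger had 51.8 CpG per kb, 62.2% G+C and 78.8% of its bases repeat-masked, and the smaller 53.2 CpG per kb, 62.9% G+C and 81.0%. Reads from identical copies cannot be placed, and the part of this in its signal was not tested.

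Of 2202 annotated miRNA genes, 48 (2.18%) started in domains, a share near the 1.99% of protein-coding genes. Among them, chosen after their places were seen, the Hox domains held Mir10a, Mir10b, Mir196a-1, Mir196a-2, Mir196b and Mir615, and a domain of 21312 bp on chromosome 6 held Mir182, Mir96 and Mir183, a sensory-organ cluster. Of 5854 lincRNA genes 168 (2.87%) started in domains, and of 2959 antisense genes 114 (3.85%).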
